A study of Mus musculus with 6 samples.

Results

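Immunoglobulin transcripts were read in 2 droplet libraries of the mouse melanoma line YUMM2.1, one carrying a lentiviral empty vector (EV) and the other ectopic Bmal1 WT. The 6 transcripts described are Igha, Ighm, Igkc, Iglc2, Iglc3 and Jchain, matched by gene symbol among the 31053 genes of the matrices. They were chosen on their UMI counts outside B cells in these same libraries, so their levels by cell class are given as a description with no test. A UMI, or unique molecular identifier, marks 1 captured RNA molecule. Each library pooled 3 samples marked with hashtag antibodies, h1, h7 and h8 for EV and h3, h5 and h9 for Bmal1 WT, and each group filled 1 droplet channel, so group and channel cannot be told apart. The labels name the line as the source and state no mouse, sex or age, whereas the study describes these transduced lines as grown under the skin of C57BL/6 mice. Whether the hashtags mark separate tumors is not stated, so p-values measure only the spread between these samples. The remaining line, Bmal1 bHLH, was not analysed because 3 of its 3 gene expression parts were identical to those of Bmal1 WT.

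Of 4147 EV and 2785 Bmal1 WT barcodes, 3978 and 2386 passed a filter of at least 200 genes and at most 20% mitochondrial UMIs, with medians of 5094 and 7570.5 UMIs. The labelled source does not cover what the barcodes held: marker genes placed 3308 EV cells (83.2%) and 1393 Bmal1 WT cells (58.4%) in immune classes, and 109 and 261 in the melanoma class. A cell entered the class of which it showed the largest share of markers, with at least 3 markers and no immunoglobulin gene among them. T and NK gated cells were 57.3% of EV cells (95% exact binomial interval 55.7 to 58.8) and 33.3% of Bmal1 WT cells (31.4 to 35.2). The libraries shared 5 barcodes. Counts by class include 368 EV and 105 Bmal1 WT cells with several hashtags, which can hold more than 1 cell, and 388 and 660 with none, whereas values by replicate leave them out.

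An antibody is built of heavy chains, such as mu from Ighm and alpha from Igha, and of kappa (Igkc) or lambda (Iglc1, Iglc2, Iglc3) light chains. B cells join V, D and J segments upstream of these constant genes and, after activation, can switch from mu to alpha or gamma. Plasma cells secrete antibody in bulk, and the J chain (Jchain) links the units of polymeric IgM and IgA. Transcripts of unrearranged constant genes, which encode no antibody, are known from other lymphoid cells, and plasmacytoid dendritic cells (pDCs), the main producers of type I interferon, are known to share part of the B cell program. The 3′ reads of these libraries fall in the constant genes and seldom reach the V segment, so a constant UMI does not show whether the locus was rearranged.

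In GRCm38, Ighm (chr12:113418558-113422730, minus strand) and Igha (chr12:113254830-113260236, minus) lie in the heavy chain locus, Igkc at chr6:70726435-70726966 (plus) and Jchain at chr5:88519809-88527891 (minus). Iglc2 (chr16:19198396-19200351, minus) and Iglc3 (chr16:19065230-19065681, minus) are near copies. Their transcripts were identical at 432 of 452 aligned bases (95.6%) and shared 43 stretches of 50 bases, so reads can be split between them. Iglc1 matched Iglc2 at 309 of 449 bases (68.8%) and shared no such stretch. Iglc2 and Iglc3 were nevertheless counted and tested separately, so this limit applies to their separate values. The lines below give 90 coding bases of each of the 3 genes from GENCODE M21, with capitals where the base differs from Iglc2.
Iglc2 (chr16:19198763-19198852, minus): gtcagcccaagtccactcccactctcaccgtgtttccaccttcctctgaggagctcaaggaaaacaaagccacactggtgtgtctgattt
Iglc3 (chr16:19065592-19065681, minus): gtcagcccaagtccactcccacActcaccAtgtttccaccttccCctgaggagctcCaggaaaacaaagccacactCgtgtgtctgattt
Iglc1 (chr16:19061982-19062071, minus): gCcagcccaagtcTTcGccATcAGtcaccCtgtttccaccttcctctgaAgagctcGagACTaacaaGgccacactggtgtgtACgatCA
Over this stretch Iglc3 differed from Iglc2 at 5 bases and Iglc1 at 19.

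A single EV cell held most of the member UMIs of its library. The 6 genes summed to 23797 UMIs over the EV cells, and 19745 of them (83.0%, 95% exact binomial interval 82.5 to 83.4) came from 1 cell of 28853 UMIs, so that 68.4% of that cell's RNA was of the 6 genes. It carried 10489 Igkc, 6867 Igha, 2379 Jchain and 10 Iglc3 UMIs, with no Ighm or Iglc2 UMI. It was the only cell in the plasma class, which also required a UMI of Mzb1 and of Tnfrsf17, and it showed 11 of 11 plasma markers. The next EV cell held 76 member UMIs. No Bmal1 WT cell was of this kind: the 2347 member UMIs of that library were spread so that the highest cell held 84 (3.58%). The plot of barcodes ranked by member UMIs shows that, apart from this cell, both libraries fell off alike.

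**Figure D1:**
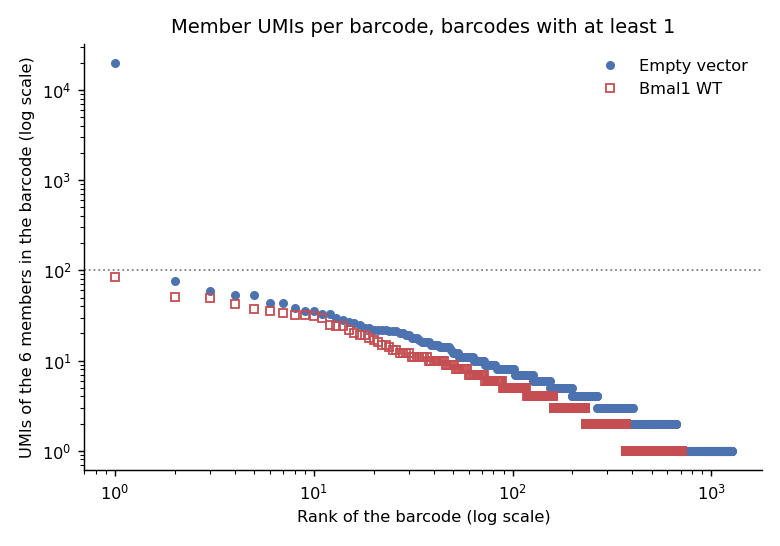
UMIs of the 6 members in each barcode with at least 1, in falling order (both axes log), for EV (filled circles) and Bmal1 WT (open squares), with a dotted line at 100 UMIs. The EV plasma cell at 19745 stands alone above the line, and the next barcodes hold 76 in EV and 84 in Bmal1 WT.

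The same cell held most V segment UMIs of its library, 185 of 197. Ighv9-4 had 83 UMIs in it of 84 in the library, Igkv8-21 had 75 of 75, and Iglv1 had 26 of 27. It also held 15 UMIs of Ighg2c and 8 of Iglc1. Its hashtag counts of 6, 2 and 40 for h1, h7 and h8 lay below the minimums of 64, 19 and 135, so it entered no replicate and no test. Among genes outside the immunoglobulin loci, 10 were set highest against the other EV cells by ratio of CPM (UMIs of a gene scaled to a common total of UMIs). Mzb1 and Txndc5 are also markers of the plasma class, and Mzb1 was required for it. Mzb1, a B-lineage chaperone of the endoplasmic reticulum (ER), had 47 UMIs in it and 53 in all other EV cells, a 1041-fold CPM ratio. The protease inhibitor Slpi followed at 57.9-fold, the disulfide isomerase Txndc5 at 12.7-fold and the translocon subunit Ssr4 at 10.4-fold. The other 6, Trp53inp1, Sec11c, Herpud1, Edem1, Pdia4 and Fos, lay between 4.78-fold and 9.29-fold. These are ratios for 1 cell, with no replicate.

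Outside that cell, the 6 genes did not share one pattern over the classes. Ighm was read in immune cells of several kinds and hardly in fibroblast or melanoma gated cells. Light chain UMIs per cell were highest in pDC and B gated cells, and in Bmal1 WT Igkc also appeared at a low level in each of the larger classes. The plot of UMIs per cell by class shows these differences for each gene.

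**Figure D2:**
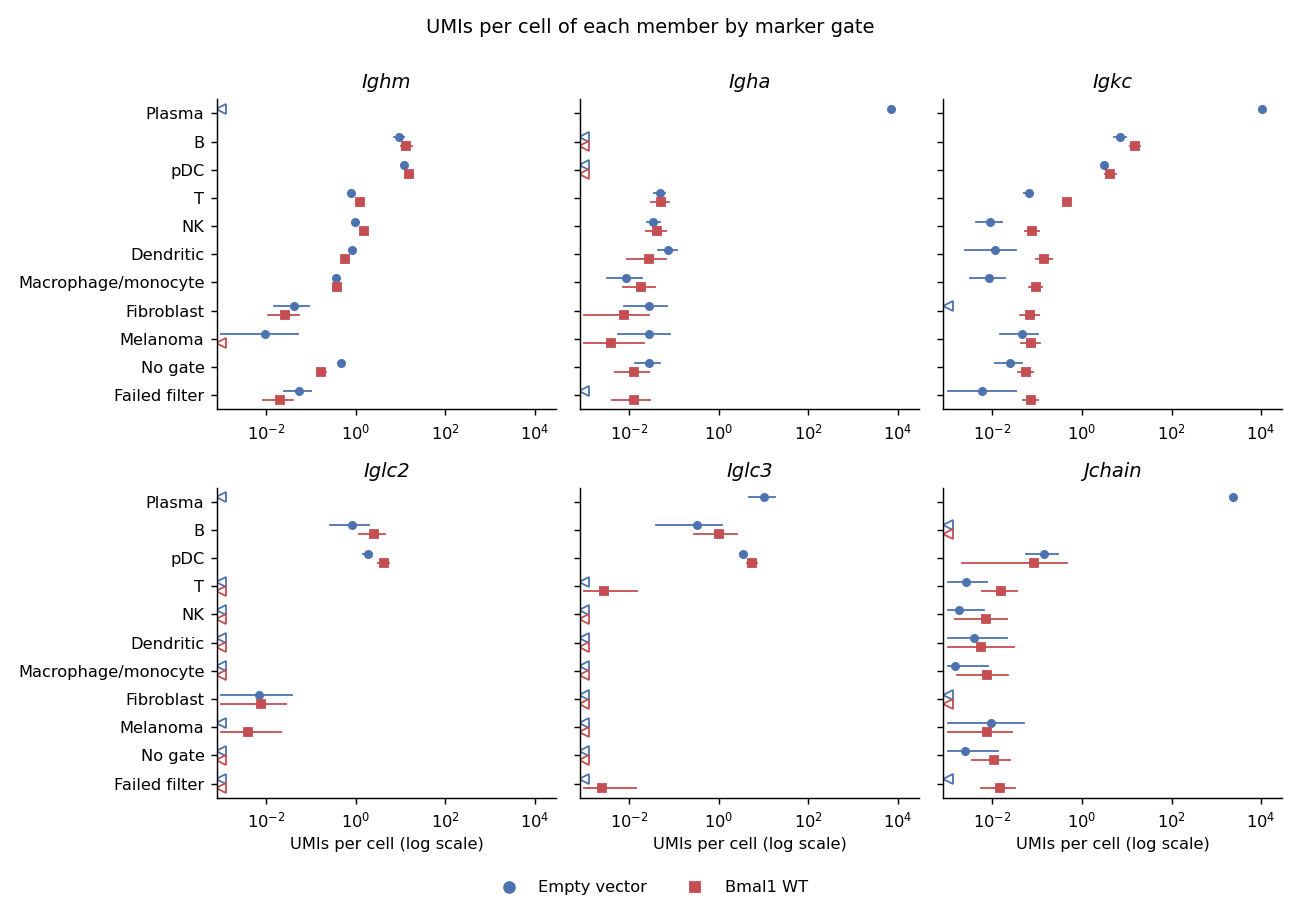
UMIs per cell of each member (log axis) by marker class, for EV (circles) and Bmal1 WT (squares), with 95% exact Poisson intervals and open triangles at the left edge where no UMI was read. Ighm falls from pDC and B gated cells to near 0 in melanoma, while Iglc2 and Iglc3 are read mainly in B and pDC gated cells and, for Iglc3, the plasma cell.

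Ighm, the mu heavy chain, was the member found in the most cells. All 50 EV pDC gated cells had an Ighm UMI, with 1 to 27 per cell and a median of 10, and all 12 Bmal1 WT pDC gated cells had 6 to 23, with a median of 18. In the 6 EV and 4 Bmal1 WT B gated cells Ighm was also present in every cell, at 9.33 UMIs per cell (95% exact Poisson interval 7.05 to 12.1) and 13.5 (10.1 to 17.6), against 11.8 (10.8 to 12.8) and 15.3 (13.2 to 17.7) in pDCs. The B and pDC intervals overlapped in both libraries. The B gated cells were shallower, however. Those of Bmal1 WT had 4775, 4477, 1683 and 1594 UMIs in all. Bmal1 WT pDC gated cells with at least 13 member UMIs had 6823 to 26231. These values per cell therefore do not compare the 2 classes at equal depth. Intervals here cover counting error only.

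NK gated, T gated and conventional dendritic cells had lower levels. NK gated cells had 0.968 Ighm UMIs per cell in EV (0.911 to 1.03, 1091 UMIs in 1127 cells) and 1.55 in Bmal1 WT (1.43 to 1.67, 647 in 418 cells). T gated cells had 0.793 (0.743 to 0.846) and 1.22 (1.11 to 1.34). No T gated cell of either library had a UMI of the B cell receptor subunit gene Cd79a, and 1 of 418 NK gated cells in Bmal1 WT had 1. Conventional dendritic cells had 0.83 in EV (0.723 to 0.949), with an interval that overlapped those of both NK and T gated cells, and 0.589 in Bmal1 WT (0.482 to 0.712), and macrophages or monocytes 0.369 and 0.374. At the other end were fibroblast gated cells, with 6 UMIs in 145 EV cells and 7 in 261 Bmal1 WT cells, and melanoma gated cells, with 1 UMI in 109 and 0 in 261, which at a floor of 3 counts allows a share of up to 1.15% of cells with a UMI.

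By CPM over the hashtag replicates, EV pDC gated cells lay between 1126 and 1595, NK gated cells between 163 and 174, and T gated cells between 112 and 153. In Bmal1 WT the ranges were 942 to 1234 for pDC, 149 to 258 for NK and 85.9 to 151 for T gated cells. The pDC replicates thus stood above those of NK and T gated cells in both libraries, and NK gated cells were above T gated cells of the same replicate in 6 of 6. Dendritic cells (35.6 to 104 in EV) and macrophages or monocytes (28.1 to 57.4 in EV) overlapped each other.

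The share of cells with an Ighm UMI followed depth, so cells were also thinned to 2000 UMIs each. In NK gated cells 41.6% (EV) and 51.4% (Bmal1 WT) had an Ighm UMI before thinning, and 25.1% (22.5 to 27.9) and 21.8% (17.8 to 26.2) after it. T gated cells went from 30.7% and 38.6% to 18.0% (15.6 to 20.5) and 16.7% (13.0 to 20.9). Thinning therefore turned the order of the libraries in both classes, with intervals that overlapped. In thinned pDC gated cells the share was 91.8% in EV and 91.7% in Bmal1 WT, and no thinned melanoma or fibroblast gated cell kept one.

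Within NK and T gated cells Ighm was uneven. NK gated cells with a UMI of Gzmc, a granule protease, held 236, 230 and 319 CPM in the EV replicates h1, h7 and h8, against 161, 152 and 154 in NK gated cells without one. In Bmal1 WT h3, h5 and h9 the pairs were 253 and 166, 232 and 124, and 353 and 231 CPM, so the Gzmc side was higher in 6 of 6 replicates. Gzmc cells were also deeper in both libraries, with medians given below beside Igha. EV T and NK gated cells were split into 3 groups by depth, with medians of 2221, 4406.5 and 9375 UMIs. Ighm had 0.230, 0.686 and 1.72 UMIs per cell in these groups. The part of depth in the Gzmc difference was not tested. T gated cells with a UMI of Foxp3, the transcription factor of regulatory T cells, held 406, 429 and 187 CPM in EV and 319, 335 and 186 in Bmal1 WT. Cells with Cd8a and no Foxp3 UMI had 76.7, 152 and 85.5 in EV and 93.1, 47.1 and 80.3 in Bmal1 WT, lower in 6 of 6 replicates. After thinning, the EV shares of cells with an Ighm UMI were 37.2% (27.0 to 48.3) for Foxp3 and 14.7% (11.3 to 18.6) for Cd8a cells. V segment UMIs were few beside these counts, with 2 in the T gated and 5 in the NK gated cells of EV and 3 and 1 in those of Bmal1 WT, never more than 1 of a gene in a cell.

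Ighd, the delta heavy chain gene just downstream of Ighm, is normally read through from the mu transcript in naive B cells. It had 26 UMIs in the 6 EV B gated cells and 17 in the 4 of Bmal1 WT. In NK gated cells it had 47 UMIs beside 1091 of Ighm in EV and 20 beside 647 in Bmal1 WT, and in pDC gated cells 12 beside 588 and 1 beside 184. Relative to Ighm, Ighd was thus read most in B gated cells, where Ighm had 56 UMIs in EV and 54 in Bmal1 WT.

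The lambda chains outside B cells were nearly all read in the pDC gate. EV pDC gated cells summed to 157 Igkc, 92 Iglc2 and 173 Iglc3 UMIs, and Bmal1 WT pDC gated cells to 52, 50 and 67. Outside the B, plasma and pDC gates, Iglc2 and Iglc3 had 1 and 0 UMIs in EV cells and 3 and 1 in Bmal1 WT cells. The same cell often held both kinds of light chain: of 50 EV pDC gated cells 21 had kappa and lambda UMIs, 5 kappa alone, 12 lambda alone and 12 neither. In Bmal1 WT these were 6, 1, 1 and 4 of 12. B gated cells with both kinds were 3 of 6 in EV and 4 of 4 in Bmal1 WT, and 1 of those 4 carried several hashtags. Every cell with an Iglc2 UMI in this gate, 10 in EV and 3 in Bmal1 WT, also had Iglc3, whose sequence it nearly shares. V segment UMIs were 2 in the EV pDC gated cells and 0 in those of Bmal1 WT.

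The pDC gate rested on Siglech, Ccr9, Klk1, Cox6a2 and Pacsin1, so their counts describe the gate and do not test it. Siglech, a pDC surface lectin, had 1095 UMIs in 50 of 50 EV and 408 in 12 of 12 Bmal1 WT pDC gated cells. Of the B cell list, Cd79a, Ms4a1, Pax5, Ebf1, Cd22, Fcer2a and Vpreb3 had 0 UMIs in these cells of both libraries. Others of that list were present: Fcrla had 199 UMIs in 33 of 50 EV and 53 in 8 of 12 Bmal1 WT cells, and Cd79b 22 in 14 and 6 in 2. Of the plasma cell list, Tnfrsf17 and Pou2af1 had 0 in both. Xbp1, a transcription factor of secretory cells, had 279 UMIs in 48 EV and 127 in 11 Bmal1 WT cells, Txndc5 149 in 31 and 58 in 10, Fam46c 114 in 30 and 20 in 6, and Mzb1 48 in 21 and 27 in 7. The part of these B and plasma genes in the light chain counts was not tested.

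**Figure D3:**
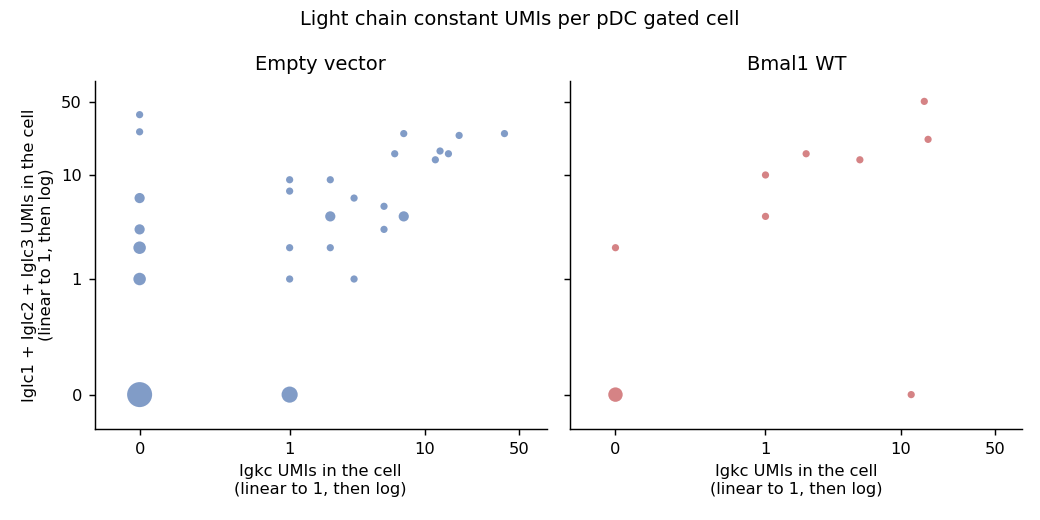
Igkc UMIs against the sum of Iglc1, Iglc2 and Iglc3 UMIs in each pDC gated cell of EV (left) and Bmal1 WT (right), with point area set by the number of cells at the same counts. Cells with both kinds of light chain, 21 of 50 in EV and 6 of 12 in Bmal1 WT, lie off both axes.

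In Bmal1 WT, Igkc was read at a like low level in fibroblast, melanoma, macrophage or monocyte and NK gated cells and in failed barcodes. It had 0.069 UMIs per cell in fibroblast gated cells (0.0409 to 0.109), 0.0728 in melanoma (0.0438 to 0.114), 0.0949 in macrophage or monocyte (0.0668 to 0.131), 0.0766 in NK gated cells (0.0524 to 0.108) and 0.0727 in barcodes that failed the filter (0.0487 to 0.104). The intervals of these 5 overlapped. In EV the same classes had 0, 0.0459, 0.00862, 0.00887 and 0.00592 UMIs per cell. The pooled EV level was lower in each, with the melanoma interval (0.0149 to 0.107) overlapping that of Bmal1 WT. Pooled intervals leave out the spread between replicates. By replicate CPM, EV and Bmal1 WT overlapped in fibroblast (0 against 0 to 2.26) and melanoma gated cells (0 to 1.42 against 0.62 to 1.93). They did not in macrophage or monocyte (0 to 1.40 against 4.52 to 13.0) and NK gated cells (0 to 2.43 against 5.44 to 34.0). The share of all genes without overlap was not computed in these classes. Beyond these 5 classes, dendritic cells had 26 Igkc UMIs in 180 Bmal1 WT cells and 3 in 259 EV cells. Bmal1 WT neutrophil gated cells had 4 in 8 cells, and ungated cells 26 in 464.

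Ighg1, the gamma-1 heavy chain and no member, was given beside Igkc because it moved with it. It had 171 UMIs in Bmal1 WT cells and 26 in failed barcodes, against 6 and 0 in EV, and its highest Bmal1 WT cell had 7. Of the summed Ighg1 and Igkc UMIs in Bmal1 WT, Ighg1 was 50% in fibroblast (32.9 to 67.1), 44.1% in melanoma (27.2 to 62.1), 47.9% in macrophage or monocyte gated cells (35.9 to 60.1) and 47.3% in failed barcodes (33.7 to 61.2). The proportion was therefore like in these 4. It was 35% in dendritic (20.6 to 51.7), 33.3% in NK (20.4 to 48.4) and 17.8% in T gated cells (12.8 to 23.7). In pDC gated cells it was 0 of 52 and in B gated cells 0 of 62. The pDC and B gated cells stood apart by an excess of Igkc over Ighg1. The T gated interval lay below those of the first 4 but overlapped those of dendritic and NK gated cells. Of the 171 Igkc UMIs in T gated cells, 4 cells with no Ighg1 UMI held 78.

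**Figure D4:**
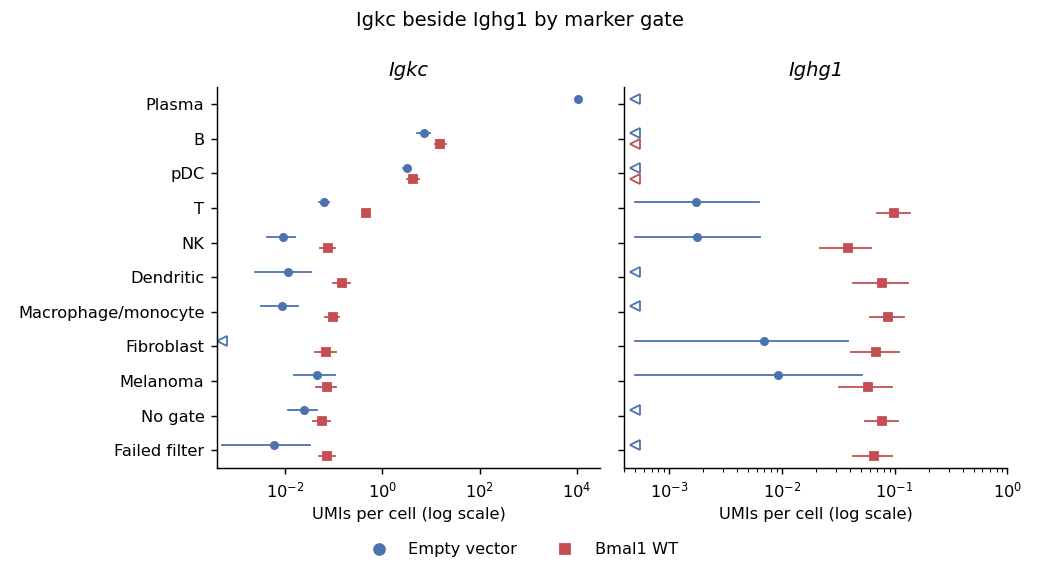
UMIs per cell of Igkc (left) and Ighg1 (right) by marker class, on log axes of different range, for EV (circles) and Bmal1 WT (squares), with 95% exact Poisson intervals and open triangles where no UMI was read. In Bmal1 WT both genes lie near 0.07 UMIs per cell in fibroblast, melanoma and failed barcodes, and Igkc but not Ighg1 is higher in pDC and B gated cells.

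Both genes differed little with depth in these lineages, with overlapping intervals. In Bmal1 WT fibroblast, melanoma, macrophage and ungated cells split into 3 equal groups by depth, with medians of 1421, 9270 and 34525 UMIs, Igkc had 0.0632, 0.0655 and 0.0893 UMIs per cell. Ighg1 had 0.0784, 0.0808 and 0.0654, and Ighm 0.0283, 0.312 and 0.166. In T and NK gated cells of the same library, with medians of 3647, 6340.5 and 12228 UMIs, Ighm went from 0.355 through 1.02 to 2.8 UMIs per cell. Igkc there went from 0.0943 (0.0611 to 0.139) through 0.133 (0.0923 to 0.184) to 0.54 (0.455 to 0.636), so the deepest T and NK gated cells stood above the rest, while Ighg1 had 0.0528, 0.0833 and 0.0642. Of the red cell genes, Hbb-bs, a beta globin, had 2551 UMIs in the failed Bmal1 WT barcodes, where 1.75% had any, and 12 in the cells that passed.

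In Bmal1 WT, T gated cells carried more Igkc per cell than fibroblast, melanoma, macrophage or monocyte and NK gated cells. Few of these T gated cells held much of it. They had 171 Igkc UMIs in 376 cells, 0.455 per cell (0.389 to 0.528). Of these UMIs, 4 cells with 18, 19, 20 and 21 held 78 (45.6%). Those 4 came from h3 and h9, had 35451 to 62734 UMIs each against a median of 6509 in the class, and had 0 or 1 B cell markers and no Ighg1, Iglc2 or Iglc3 UMI. Of the 4, 3 had Foxp3 UMIs and the other Cd8a. Their depth leaves doublets possible, no doublet caller was run, and their part in the result was not tested. The remaining T gated cells had 0.25 Igkc UMIs per cell.

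EV T gated cells had 74 Igkc UMIs in 1151 cells, 0.0643 per cell (0.0505 to 0.0807), with 13 and 10 in the highest 2 cells, which had Foxp3 UMIs too. Igkc was highest among Foxp3 T cells in both libraries, at 0.489 UMIs per cell in EV (0.357 to 0.654, 92 cells) and 1.94 in Bmal1 WT (1.56 to 2.38, 47 cells). Cells with Cd8a and no Foxp3 UMI had 0.0347 (0.0194 to 0.0573) and 0.322 (0.242 to 0.419). The replicates of Foxp3 cells had 45.7, 110 and 32.6 CPM in EV and 88.2, 157 and 220 in Bmal1 WT, so these ranges overlapped.

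Igha, the alpha heavy chain, was thinly read outside the plasma cell. EV cells outside the B and plasma gates had 137 Igha UMIs and Bmal1 WT cells 57, with none in pDC or B gated cells of either library. In NK gated cells with Gzmc there were 15 UMIs in 72 EV cells (0.208 per cell, 0.117 to 0.344) and 14 in 74 Bmal1 WT cells (0.189, 0.103 to 0.317), and in NK gated cells without Gzmc 0.0227 (0.0146 to 0.0338) and 0.00872 (0.0018 to 0.0255). The Gzmc cells were also deeper, at medians of 8330 and 11116 UMIs against 4186 and 5627. An EV T gated cell of 8279 UMIs held 10 of the Igha UMIs, with 22 of Ighm, 13 of Cd8a and 9 of Foxp3 and no B cell marker.

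The proportion of Igha to Igkc in the EV plasma cell was set beside that of the other EV classes. Of the summed Igha and Igkc UMIs, Igha was 39.6% in the plasma cell (38.8 to 40.3), 79.6% in NK (65.7 to 89.8) and 86.4% in dendritic cells (65.1 to 97.1), and 42.6% in T gated cells (34.0 to 51.6). It was 50% in macrophage or monocyte gated cells (21.1 to 78.9), 37.5% in melanoma (8.52 to 75.5) and 52.4% in ungated cells (29.8 to 74.3). The NK and dendritic intervals lay above the plasma cell's value, and those of T, macrophage or monocyte, melanoma and ungated cells covered it. Fibroblast gated cells had 4 Igha and no Igkc UMIs. EV failed barcodes held 0 Igha and 1 Igkc UMI in 169. Jchain, at 2379 in the plasma cell, had 16 UMIs in all EV cells outside the B and plasma gates, 7 of them in pDC gated cells. In Bmal1 WT it had 23 UMIs in cells and 6 in failed barcodes.

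EV and Bmal1 WT were then compared over the 3 replicates each, with UMIs summed per hashtag. Over all cells, no member passed, and neither did any other gene: 0 of 12042 genes (0%) were called by edgeR's quasi-likelihood test with Benjamini-Hochberg adjustment, 2936 had an unadjusted p below 0.05 and DESeq2 called 961. Ighm had 103, 146 and 95.1 CPM in h1, h7 and h8 and 99.5, 31.0 and 61.2 in h3, h5 and h9. The groups overlapped, with a log2 fold change of Bmal1 WT over EV of -0.84 ± 0.41 (SE) and an adjusted p of 0.248 in that test. T and NK gated cells, a larger share of EV than of Bmal1 WT cells, moved with this value and their part in it was not tested.

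Igha had 4.04, 4.77 and 3.98 CPM in EV and 3.27, 1.22 and 1.07 in Bmal1 WT, without overlap, as was the case for 34% of all genes tested. Its log2 fold change was -1.14 ± 0.46 (SE, adjusted p = 0.197, edgeR's quasi-likelihood test). Igkc gave 0.66 ± 0.39 (adjusted p = 0.314, same edgeR test), Iglc3 -1.17 ± 0.56 (0.243) and Iglc2 -0.60 ± 0.78 (0.633). Jchain was under the filter of 100 UMIs over the replicates, so 5 of 6 members were tested. Outside the B and plasma gates 0 of 12041 genes (0%) were called by the same edgeR test, against 2935 at an unadjusted p below 0.05 and 970 by DESeq2. The 5 members gave like values, with 0.75 ± 0.33 for Igkc (adjusted p = 0.214). Without pDC gated cells as well, Igkc gave 1.77 ± 0.42 (adjusted p = 0.157, same edgeR test), and Iglc2 and Iglc3 fell under the filter. The pDC gate held 1.26% of EV and 0.503% of Bmal1 WT cells. Within it the replicate means were 332 (EV) and 331 CPM (Bmal1 WT) for Iglc3, and 178 and 253 for Iglc2. The part of the pDC share in the lambda values was not tested.

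In T and NK gated cells alone, Igkc rose in Bmal1 WT and Ighm and Igha did not pass. Igkc had 6.46, 7.32 and 5.47 CPM in EV h1, h7 and h8 and 24.9, 22.0 and 60.0 in Bmal1 WT h3, h5 and h9, without overlap, which held for 29.3% of the genes tested. Its log2 fold change was 2.36 ± 0.37 (SE, adjusted p = 0.0236, edgeR's quasi-likelihood test), and 411 of 9335 genes (4.4%) were called, 229 of them higher in Bmal1 WT (2.45% of those tested). Without h1, h3 or h5 the fold changes were 2.38, 2.61 and 2.59, with adjusted p of 0.0883, 0.0597 and 0.0731 in the same edgeR test, so the call was lost with each. Without h7, h8 or h9 it was kept, and over the alternatives in which Igkc was tested the adjusted p lay between 8.5e-09 (DESeq2) and 0.0883. Igkc was under the filter, and so untested, in NK gated cells alone and once cells with any B or plasma marker UMI were left out. With TMM scaling the calls were 358 higher and 73 lower in place of 229 and 182, and Igkc stayed at 2.44.

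The Igkc difference was read beside 2 values that moved with it. Ighg1, with too few UMIs to test in these cells, had 3, 0 and 0 UMIs in the T and NK gated cells of EV and 20, 5 and 25 in those of Bmal1 WT, or 5.42, 2.75 and 24.6 CPM, and was highest in h9 as Igkc was. In T gated cells alone Igkc had a log2 fold change of 2.21 (adjusted p = 0.069, edgeR's quasi-likelihood test), and without cells of 10 or more UMIs of any member it was 2.09 (adjusted p = 0.0471). The part of the shared low level and of the few high cells in the difference was not tested further.

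Ighm in T and NK gated cells had 140, 159 and 139 CPM in EV and 179, 108 and 172 in Bmal1 WT. The log2 fold change was 0.07 ± 0.17 (SE, adjusted p = 0.838, edgeR's quasi-likelihood test), with overlapping groups and h5 as the lowest sample. Igha had 8.13, 4.33 and 6.13 CPM in EV and 5.97, 4.95 and 2.95 in Bmal1 WT, with -0.33 ± 0.36 (adjusted p = 0.618, same edgeR test). Iglc2, Iglc3 and Jchain were too low to test here.

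**Figure D5:**
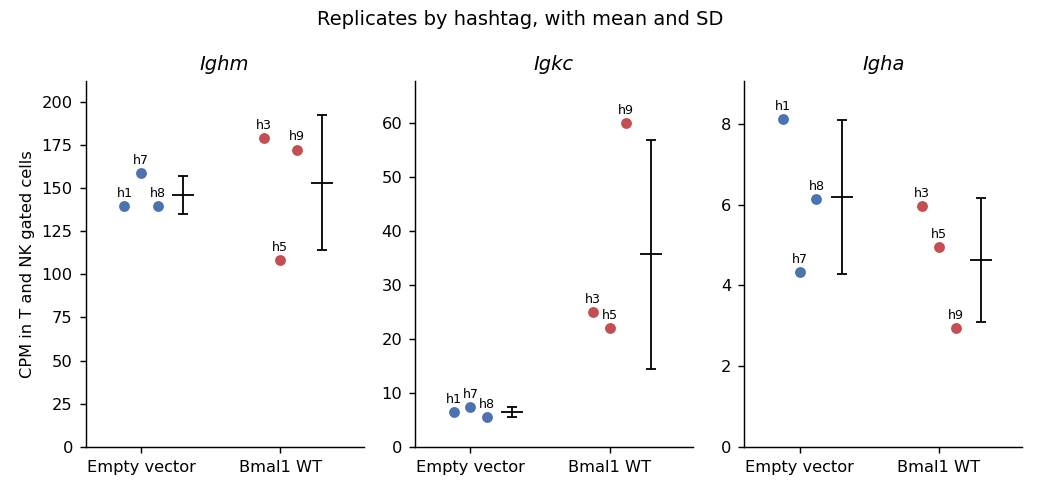
CPM of Ighm, Igkc and Igha in T and NK gated cells of each hashtag replicate (points, each panel with its own axis from 0), with the mean and SD of the 3 replicates of a group (bars). Igkc is the gene of the 3 whose groups do not overlap, with EV replicates between 5.47 and 7.32 and Bmal1 WT replicates between 22.0 and 60.0.

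Genes of the plasma cell, B cell, receptor and red cell lists did not pass in any comparison. Over all cells and outside the B and plasma gates no gene of any kind passed, so there this is not particular to the lists. Over all cells, 0 of the 6 plasma cell genes tested (of 11), 0 of 3 B cell genes (of 12) and 0 of 8 immunoglobulin receptor genes (of 11) were called, and no red cell gene reached the filter. The receptor genes, which bind antibody on myeloid cells and elsewhere, had a median log2 fold change of -0.46, with all 8 below 0, beside -0.02 for all genes. The largest was Fcer1a, the alpha subunit of the IgE receptor of mast cells and basophils, at -3.17 ± 1.07 (SE, adjusted p = 0.168, edgeR's quasi-likelihood test), followed by Fcgr1 at -0.80 and Trim21 at -0.66. Among B cell genes Fcrla, an intracellular Fc receptor-like protein, had -1.11 ± 0.22 (adjusted p = 0.151, same edgeR test), with -0.82 for Cd79b and 0.18 for Ebf1. Among plasma cell genes the values went both ways, with -0.86 ± 0.37 for Fam46c (adjusted p = 0.21, same edgeR test), 0.46 ± 0.14 for Creld2 (0.157) and 0.46 ± 0.74 for Sdc1 (0.706). In T and NK gated cells 5 plasma cell and 7 receptor genes were tested and 0 called, beside 4.4% of all genes tested there. Lists this short cannot be told apart from that share. Their medians were 0.06 and -0.14 beside -0.09 for all genes. The 3 largest of each there were Creld2 (0.49), Xbp1 (-0.24) and Fam46c (-0.13), and Fcgr1 (-1.26), Fcgr4 (-0.57) and Fcgr2b (0.55).

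Over the 15 pairs of class and library with at least 50 cells, the 5 genes whose log2(CPM + 1) most resembled that of the summed members were Rab35 (Pearson r = 0.965), Ccnd3 (0.964), Secisbp2 (0.959), Gpr18 (0.956) and Arhgef6 (0.955). Ccnd3 encodes cyclin D3, Rab35 a small GTPase of endosomal traffic and Gpr18 a G protein-coupled receptor of lymphocytes. These points share libraries and depth, and without the pDC pair r lay between 0.947 and 0.972. Of 387 other immunoglobulin genes, 18 had a UMI in EV and 12 in Bmal1 WT, 371 and 269 UMIs in all. Of these, 197 and 9 UMIs were of V genes, 185 of the EV ones in the plasma cell, and the highest were Ighv9-4, Igkv8-21, Iglv1 and Iglv3, with Igkv9-120 tied with further V genes at 1 UMI.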

How the data were processed

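The authors deposited UMI count matrices made with Cell Ranger 6.1.2 per the file headers, from Chromium 3′ v3.1 libraries, on mm10 per the labels; these raw counts carry no normalization, and hashtag counts sit in the same matrices. The methods state no further steps for these libraries. Barcodes were filtered as given, hashtags were called with a mixture of 2 Gaussians (scikit-learn), and 3222 EV and 1621 Bmal1 WT cells had exactly 1 hashtag, from 326 to 1403 per replicate. Members and gene lists were chosen with earlier results of these data known, and the need for Mzb1 and Tnfrsf17 in the plasma class was added after seeing the data. Counts summed per replicate and scaled by total UMIs (4655548 to 11873279) were tested with edgeR 4.0.16 (R 4.3.3), genes of at least 100 UMIs, adjusted p below 0.05. Alternatives were TMM, DESeq2 1.42.0, other filters, hashtag calls and gates, and leaving out each replicate. Intervals are exact. The named genes were all members, the other immunoglobulin constant genes, the 5 highest V genes, the 5 most alike genes, the 10 highest genes of cells with 100 or more member UMIs, and the 3 largest changes of each list. Gene positions came from GENCODE M21.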

Additional observations from a re-analysis of the deposited data

How the results depend on the processing

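Of 175 recomputed member fold changes, 167 were counted as keeping their direction and their side of the threshold. Another 4 lost the call (Igkc in T and NK gated cells) and 4 turned direction, none of these called. The 167 include the setting that left out the plasma cell, whose values could not change because that cell entered no replicate. They also include Iglc2 by DESeq2 over all cells and outside the B and plasma gates. DESeq2 gave no adjusted p for it there, so only its direction was compared. Igkc over all cells turned to -4.46 when hashtags were taken as the highest centred log count, which gives the plasma cell a replicate. With these hashtag calls Igha also moved from -1.14 to -6.86, and Jchain reached the filter, at -6.61, all without a call. Ighm in T and NK gated cells turned to -0.12 in T gated cells alone and to -0.035 without cells of 10 or more UMIs of 1 member, and ranged from -0.087 to 0.27 when 1 replicate was left out. Counts of called genes moved more. DESeq2 called 961 over all cells and 970 outside the B and plasma gates, in place of 0, and leaving out 1 replicate gave 0 to 126 and 0 to 108, the highest without h3. Leaving out cells with any B or plasma marker UMI gave 435 outside the gates and 74 in T and NK gated cells. In the latter, in place of 411, no filter on genes gave 926, NK gated cells alone 4, T gated cells alone 0, no cells of 10 or more UMIs of 1 member 16, and leaving out 1 replicate 0 to 161 (0 without h3 or h5, 2 without h1). The cause was not tested. A threshold of 50 member UMIs gave 8 high cells in place of 1. Without its 2 required genes, the plasma class held 85 EV and 121 Bmal1 WT cells. The settings of NK alone, T alone, pDC gated cells left out, no cells of 10 or more UMIs of 1 member, and the plasma class without its required genes were chosen after seeing the data. No paired analysis was possible because the groups compared share no replicate number.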
